A study of Daphnia magna with 56 samples.

Results

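Transcript levels in juvenile Daphnia magna after 4 days at the lowest gamma dose rate used, 0.4 mGy/h, were compared with those of unexposed animals of the same day, to find which transcripts shifted and how far the shift ran along the difference between day 4 and day 8 animals. The libraries were taken by their labels, 4 at 0.4 mGy/h and 4 at 0 mGy/h, which is 8 of the 56 libraries of the series. Both groups were RNA from whole wild-type (WT) females labelled as juveniles 4 days old, kept in M7 medium without flow in small beakers, and by their labels they differed only in dose rate. The other 48 libraries, 4 per group, came from the same dose rates on day 8 and from 1, 4, 10, 40 and 100 mGy/h on both days. The labels do not say how many animals went into a library or whether replicates had separate beakers, so p-values measure the spread between these libraries, which may be technical.

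Daphnia magna is a freshwater crustacean that reproduces by parthenogenesis, so laboratory animals are usually females of a clone. Like other arthropods it grows by shedding its cuticle. Ecdysteroid hormone pulses drive each moult, and genes for cuticle proteins and for the enzymes that build and digest chitin are turned on and off within each cycle. As juveniles mature, the ovary fills and yolk protein genes become active. Gamma radiation ionises water and other molecules, and the radicals formed can oxidise lipids and proteins and break DNA strands.

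Each value is a read count of a RefSeq model transcript record, and levels are given as CPM, counts per 1e6 counts, on library sizes scaled over all 56 libraries. The 8 libraries held between 13359189 and 14243541 counts. Most records matched a gene symbol, but all symbols were LOC numbers without a description, so no role is given for any record and neither tissue nor sex could be checked by marker genes. Whole animals were used, so a larger tissue and more RNA per cell cannot be told apart. In the edgeR quasi-likelihood fit of all 28 day 4 libraries, 9369 records were tested, and a record is said to be called where its Benjamini-Hochberg adjusted p was under 0.05.

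The shift at 0.4 mGy/h was close to 0 for most records and had a long tail of rises. The median log2 fold change was -0.01, the 5% quantile -0.25 and the 95% quantile 0.65, and the highest value was 12.19 against a lowest of -1.54. At least 2-fold higher, a log2 fold change of 1 or more, were 363 records (3.87%), and at least 2-fold lower were 5 (0.0534%). All 4 exposed libraries lay above all 4 controls for 560 records (5.98%) and below them for 279 (2.98%). By edgeR, 15 records (0.16% of those tested) were called, 12 higher (0.128%) and 3 lower (0.032%). An unadjusted p under 0.05 was reached by 1247 records (13.3%), 811 of them higher (8.66%), and an adjusted p under 0.1 by 361 (3.85%), 298 of them higher (3.18%). The number of calls depended on the fit. It was 395 by DESeq2 and 278 in an edgeR fit of the 8 libraries alone. Leaving out any 1 of the 8 libraries moved it by over 1.5 times: to 0, 2, 6 and 5 without control replicates 1 to 4, and to 41, 5, 9 and 6 without exposed replicates 1 to 4. Totals on day 4 fell into 2 classes, with control replicate 3 in the larger and the other 7 libraries in the smaller. Within the smaller class, which holds 3 controls, 1 record was called, and the larger class held no exposed library for a value of its own.

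The 15 called records all had groups that did not overlap, and 7 of them differed at least 2-fold. They fall into 4 kinds by level and by day difference, a grouping made after the values were seen. The first kind holds 6 records with few reads in the controls. XM_032926049.1 (LOC116919999) had 1.76, 1.23, 1.87 and 2.24 CPM in the controls and 4.19, 7.08, 9.16 and 10.3 CPM at 0.4 mGy/h. Its lowest exposed library was well above its highest control, and it rose by 2.12 on the log2 scale (SE 0.40; edgeR, adjusted p = 0.0405). XM_032939574.1 (LOC116931905) had 0.849, 0.712, 0.622 and 1.02 CPM in the controls and 2.16, 3.00, 5.30 and 2.56 CPM at 0.4 mGy/h. Replicate 3 stood highest, the groups did not overlap, and the record rose by 2.02 on the log2 scale (SE 0.33; edgeR, adjusted p = 0.00710). XM_032933540.1 (LOC116926585) went from 0.975 ± 0.224 to 3.67 ± 0.942 CPM (SD, n = 4), higher by 1.91 on the log2 scale (SE 0.39). The smaller rises of the first kind were those of XM_032943526.1 (LOC116936380), from 1.40 ± 0.269 to 3.14 ± 0.307 CPM, of XM_032923997.1 (LOC116918318), from 1.74 ± 0.160 to 3.41 ± 0.445 CPM, and of XM_032929022.1, which matched no symbol, from 4.03 ± 0.492 to 6.53 ± 1.11 CPM (SD, n = 4). All 6 were also called higher on day 8 than on day 4, by log2 fold changes from 0.87 to 2.51 in the 40 libraries at 1 to 100 mGy/h and from 0.95 to 2.81 in the controls. Low counts limit the precision of these 6: XM_032939574.1 had 50 reads over the 4 controls and 200 over the 4 exposed libraries.

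The second kind holds 3 abundant records with smaller rises. XM_032932583.1 (LOC116925808) had 368, 385, 366 and 370.2 CPM in the controls and 479, 509, 731 and 640.1 CPM at 0.4 mGy/h. The controls were within a narrow band and replicates 3 and 4 were the highest exposed libraries. Its rise was 0.67 on the log2 scale (SE 0.14; edgeR, adjusted p = 0.0481). XM_032942482.1 (LOC116935102) rose from 282 ± 20.3 to 375 ± 38.4 CPM and XM_032932244.1 (LOC116925541) from 48.1 ± 3.63 to 62.9 ± 7.03 CPM (SD, n = 4). On day 8 in the 1 to 100 mGy/h libraries these 3 were called higher too, by 0.86, 1.02 and 0.82 on the log2 scale. In the controls the day differences were 0.62, 0.77 and 0.61, and that of XM_032932583.1 was not called (edgeR, adjusted p = 0.0594).

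The third kind holds 3 records that rose at 0.4 mGy/h with day differences near 0, not called, in the controls. At 1 to 100 mGy/h XM_032925613.1 and XM_032923366.1 were called higher on day 8, by 0.54 and 0.65 on the log2 scale (edgeR, adjusted p = 0.00742 and 0.00151), and XM_032929901.1 was not (0.34, edgeR adjusted p = 0.0992). XM_032925613.1 (LOC116919594) had 14.6, 18.7, 15.4 and 14.5 CPM in the day 4 controls and 59.3, 41.2, 23.6 and 49.5 CPM at 0.4 mGy/h. Every exposed library was higher than every control, with replicate 3 the nearest to them, and the rise was 1.46 on the log2 scale (SE 0.24; edgeR, adjusted p = 0.00710). Its day 8 controls had 11.6, 17.2, 8.25 and 17.4 CPM, a range that overlaps the day 4 controls, and its day 8 libraries at 0.4 mGy/h had 105, 75.7, 91.1 and 101 CPM. The rise of 2.77 on the log2 scale on day 8 was not called (edgeR adjusted p = 0.123), and the day 8 minus day 4 difference of the controls was -0.21 (edgeR adjusted p = 0.697). Of the 20 day 4 libraries at 1 to 100 mGy/h, which ran from 16.2 to 54.8 CPM with a median of 26.1, 17 lay above all 4 controls. XM_032929901.1 (LOC116923437) went from 3.16 ± 0.504 to 6.65 ± 1.75 CPM on day 4 (SD, n = 4). This rise of 1.07 on the log2 scale was called (SE 0.19; edgeR, adjusted p = 0.0154), with 17 of the 20 other day 4 libraries above all controls. On day 8 it had 3.26 ± 0.630 CPM in controls and 18.7 ± 4.08 CPM at 0.4 mGy/h (SD, n = 4; edgeR adjusted p = 0.249, not called). XM_032923366.1 (LOC116917768) had 14.7, 19.2, 21.6 and 17.7 CPM in the controls and 69.8, 37.8, 22.7 and 33.5 CPM at 0.4 mGy/h. Replicate 1 stood highest and replicate 3 just above the highest control, and the rise was 1.16 (SE 0.22, edgeR adjusted p = 0.0406). Of the 20 other day 4 libraries, 9 lay above all 4 controls, and on day 8 it was higher by 1.90 on the log2 scale without a call (edgeR, adjusted p = 0.730). The genes of all 3 lie on linkage groups 1 and 5 of the RefSeq annotation.

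The fourth kind holds the 3 falls, all small. XM_032921729.1 (LOC116916477) had 285, 243, 286 and 272 CPM in the controls and 209, 185, 218 and 199.8 CPM at 0.4 mGy/h. The groups were separated by the gap between control replicate 2 and exposed replicate 3, and the fall was -0.41 on the log2 scale (SE 0.07, edgeR adjusted p = 0.00710). Its day 8 controls, at 184 ± 19.9 CPM (SD, n = 4), were called lower than its day 4 controls, and 17 of the 20 other day 4 libraries lay below all 4 controls. XM_032942583.1 (LOC116935234) fell from 1188 ± 15.2 to 1095 ± 31.4 CPM and XM_032936186.1 (LOC116929040) from 35.3 ± 0.792 to 30.9 ± 1.41 CPM (SD, n = 4). For XM_032942583.1 all 20 other day 4 libraries were below the controls, between 1064 and 1171 CPM.

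**Figure D1:**
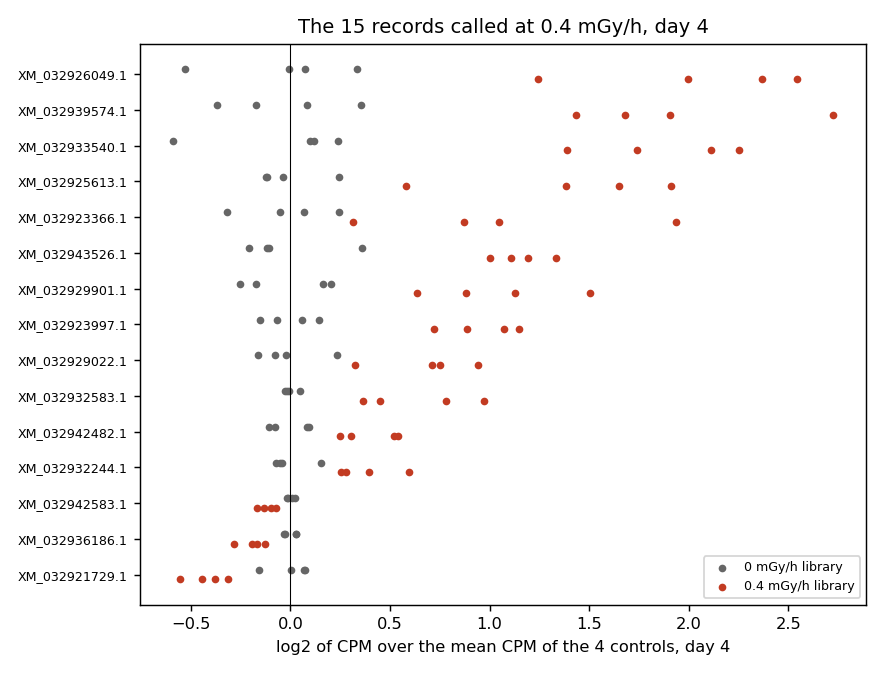
Level of each of the 15 called records in each of the 8 day 4 libraries, as log2 of CPM over the mean CPM of the 4 controls (x axis); each point is 1 library, grey at 0 mGy/h and red at 0.4 mGy/h. The 12 records at the top have all red points to the right of the grey ones and the 3 at the bottom all red points to the left.

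The largest shifts were not among the calls of the 28-library fit. At least 8-fold higher with groups that did not overlap were 170 records (1.81%), a set chosen by this shift, so its values at 0.4 and 0 mGy/h on day 4 are a description without a test. Their log2 fold changes had a median of 4.97 with quartiles of 3.89 and 6.73. Just inside the limit lay XM_032936540.1 at a log2 fold change of 3.00, and XM_032941091.1 was just outside at 2.96. Of the 170, none was called. They made up 123 of the 361 records with an edgeR adjusted p under 0.1 (3.85% of all), 147 of the 278 calls in the fit of the 8 libraries alone and 158 of the 395 DESeq2 calls, counts that the choice of the set by this shift favours and that show nothing more about it. XM_032920621.1, which had the highest shift, had an SE of 3.27 in the 28-library fit and of 1.00 in the fit of 8.

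Many of these records had few or no reads in the controls. The mean control level was under 1 CPM for 100 of the 170, and the mean level at 0.4 mGy/h was over 100 CPM for 45. XM_032942686.1, XM_032942282.1 and XM_032941768.1 had no read in any control and 405, 225 and 137 reads over the 4 exposed libraries. Set against a floor of 3 reads over the 4 controls, they were at least 137-fold, 76.3-fold and 46.5-fold higher, and with these bounds in place of the fitted values the median of the 170 was again 4.97. XM_032920626.1 (LOC116915470) had 0.131, 0.0647, 0 and 0.831 CPM in the controls and 302, 401, 1104 and 879.9 CPM at 0.4 mGy/h. It was at or near 0 in every control and far above that in every exposed library, highest in replicates 3 and 4. Its 16 control reads against 41141 exposed reads give a ratio of 2616, with a 95% interval from 1611 to 4577 that covers counting error only (edgeR log2 fold change 11.32, adjusted p = 0.0678). XM_032939186.1 (LOC116931589) had 0.326, 0.324, 0.435 and 0.384 CPM in the controls and 197, 259.8, 688 and 509.7 CPM at 0.4 mGy/h. The groups were again far apart, with exposed replicates 3 and 4 the highest. XM_032920621.1, XM_032920631.1 and XM_032920627.1, without symbols, had 1, 5 and 4 reads over the controls and 6814, 8732 and 7137 over the exposed libraries. The record of the set with the highest exposed level was XM_032940754.1, named after its values were seen, with 9.14, 7.64, 8.64 and 8.63 CPM in the controls and 749, 495, 1147 and 1303 CPM at 0.4 mGy/h.

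**Figure D2:**
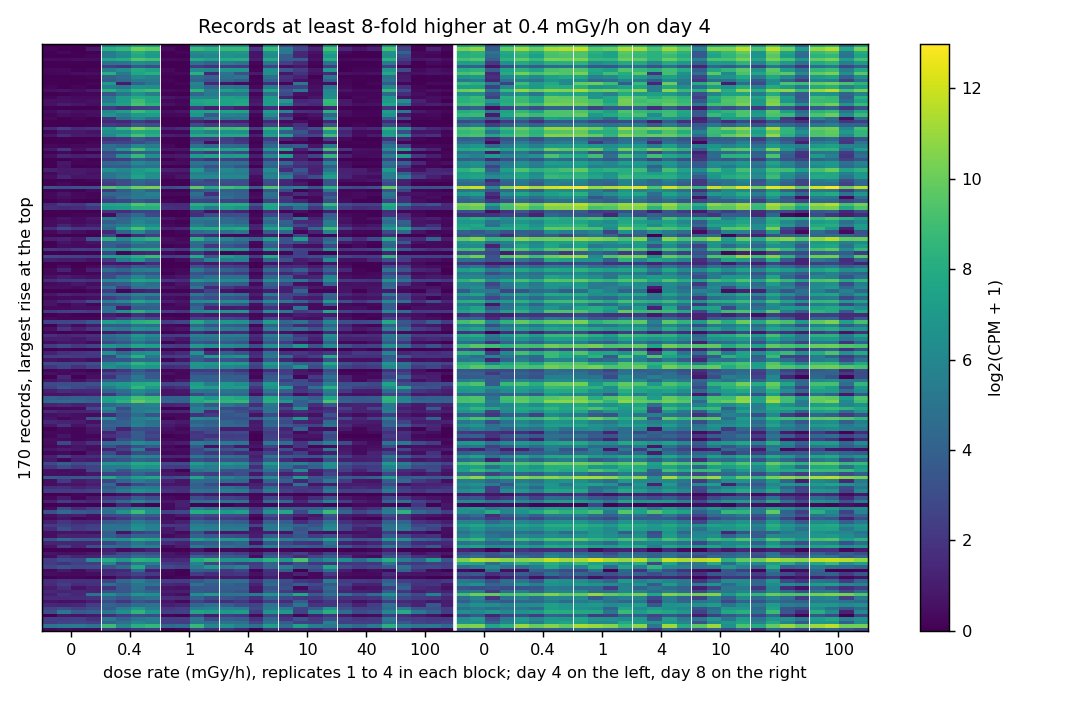
Level of the 170 records at least 8-fold higher at 0.4 mGy/h on day 4 (rows, largest shift at the top) in all 56 libraries (columns, blocks of replicates 1 to 4 by dose rate, day 4 left of the thick line and day 8 right of it), as log2 of CPM plus 1. Between 55 and 74 of the 170 records reach 1 CPM in the control libraries of day 4 and between 158 and 167 at 0.4 mGy/h. In the other day 4 blocks dark and bright columns stand side by side, with 51, 51, 167 and 156 records in replicates 1 to 4 at 1 mGy/h.

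A feature that the choice did not use was position. Of the 170, 119 matched a gene, no gene held more than 1 of them, and 105 genes lay on named linkage groups of the RefSeq annotation. Of these 105, 56 (53.3%) stood next to another gene of the set in the order of tested genes. Of the 6140 tested genes on linkage groups outside the set, 127 (2.07%) stood next to a gene of the set. There were 17 runs of at least 2 neighbours. Linkage group 2 held 27 of the genes out of 960 tested, linkage group 1 held 22 out of 995, linkage group 10 held 18 out of 450 and linkage group 4 held 17 out of 697, while linkage group 3 held 1 out of 585. The longest runs had 8 genes, from LOC116915484 to LOC116917167 on linkage group 2 and from LOC116921343 to LOC116934345 on linkage group 4.

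In the run on linkage group 2, mean levels were 0.481 to 4.03 CPM in the controls and 22.4 to 392 CPM at 0.4 mGy/h. Its first gene LOC116915484 (XM_032920642.1) had 0.522, 0.518, 0.373 and 0.512 CPM in the controls and 38.7, 145, 498 and 219 CPM at 0.4 mGy/h. Its seventh gene LOC116915500 (XM_032920657.1) had 1.76, 3.88, 2.86 and 7.61 CPM in the controls and 204, 225, 713 and 425 CPM at 0.4 mGy/h. Replicate 3 was the highest exposed library for both genes and replicate 1 the lowest, and no exposed library came near a control. In the run on linkage group 4, levels were lower, with means of 0.0162 to 1.14 CPM in the controls and 4.90 to 73.4 CPM at 0.4 mGy/h. Its gene LOC116921324 (XM_032927590.1) had 0.196, 0.842, 0.933 and 0.576 CPM in the controls and 31.8, 44.7, 134 and 83.5 CPM at 0.4 mGy/h. How reads that match several records were counted is not given in the sources used here, so levels within a run of neighbours that are copies of each other would be uncertain. The number of neighbours in the set would then be uncertain too.

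To see where the other libraries stood, the CPM of the 170 records were summed in each. The day 4 controls had 277, 456, 332 and 492 CPM and the 0.4 mGy/h libraries 7932, 7788, 23165 and 16164 CPM, a gap that the choice of records fixes. The 20 day 4 libraries at 1 to 100 mGy/h, which the choice did not use, ran from 239.7 to 12664 CPM with a median of 1856. Of these 20, 7 lay within the range of the 0.4 mGy/h libraries and 5 at or below the highest control. In replicates 1 to 4 at 1 mGy/h the sum was 239.7, 250.3, 11334 and 8072 CPM. For 4 mGy/h it was 8985, 8487, 509 and 9100 CPM, and for 40 mGy/h 586, 287, 434 and 10656 CPM. High and low libraries thus occurred within the same dose rate. The lowest 0.4 mGy/h library was above the lowest library of each other day 4 group. The choice favours this, since it required all 4 exposed libraries of each record to lie above all controls, and nothing is read from it. The sum was 3423, 2893, 818 and 12664 CPM at 10 mGy/h and 3232, 497, 687 and 245 CPM at 100 mGy/h. No library at 100 mGy/h reached the 0.4 mGy/h range, which the same choice favours.

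**Figure D3:**
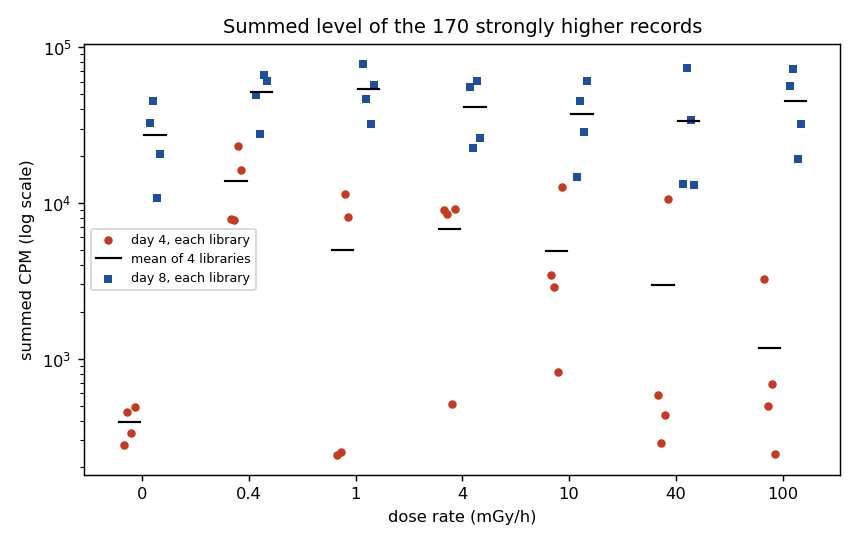
Summed CPM of the 170 records (y axis, log scale) in each of the 56 libraries by dose rate (x axis); red circles are day 4, blue squares day 8 and bars the mean of 4 libraries. Day 4 libraries at 1 to 100 mGy/h spread from 239.7 to 12664 CPM, from below the lowest control to within the range of the 0.4 mGy/h group. The lowest day 8 library has 10703 CPM.

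The day difference was then taken as the scale for the shift. In the controls, edgeR called 5024 of 9561 records (52.5%) between day 8 and day 4, 2480 higher (25.9%) and 2544 lower (26.6%). That difference shares the 4 day 4 controls with the comparison at 0.4 mGy/h, so values are set side by side and no correlation is given. XM_032920626.1 had 0.257 ± 0.387 CPM in day 4 controls, 672 ± 383 CPM at 0.4 mGy/h on day 4 and 995 ± 761 CPM in day 8 controls (SD, n = 4), with log2 fold changes over the day 4 controls of 11.32 and 11.87. XM_032939186.1 had 0.367 ± 0.0531, 414 ± 227 and 408 ± 308 CPM in the same order (SD, n = 4), with log2 fold changes of 10.11 and 10.08. XM_032926049.1 had 1.77 ± 0.416, 7.69 ± 2.69 and 12.5 ± 6.56 CPM, and XM_032942583.1 had 1188 ± 15.2, 1095 ± 31.4 and 966 ± 62.1 CPM (SD, n = 4). For the first pair the level at 0.4 mGy/h on day 4 overlapped the day 8 controls, and for the second pair it lay between the means of the day 4 and day 8 controls. Control replicate 3 was the lowest of the day 8 controls for several of these records, with 13.3 CPM of XM_032920626.1 where the others had 870.4 to 1819 CPM. XM_032925613.1, XM_032929901.1, XM_032923366.1 and XM_032936186.1 did not follow this pattern, with control day differences of -0.21, 0.05, -0.13 and -0.0036 on the log2 scale, none of them called.

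A day difference that shares no library with the comparison came from the 40 libraries at 1 to 100 mGy/h, where edgeR called 7655 of 9561 records (80.1%), 3790 higher on day 8 (39.6%) and 3865 lower (40.4%). In these libraries age and 4 more days of irradiation cannot be told apart. All 12 records called higher at 0.4 mGy/h were higher on day 8 in these libraries, 11 of them called, and all 3 called lower were lower, 2 of them called. Across the 9369 records, which are not independent and share libraries, the shift had a Pearson r of 0.61 and a Spearman rho of 0.28 with this day difference, and 57.2% had the same sign. Without the 170 records r was 0.48 and rho 0.24, over 9199 records. Among the 1276 records called and at least 2-fold different between days, r was 0.60, rho was 0.67 and 77.7% had the same sign.

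The 829 records at least 2-fold higher on day 8 had a median shift at 0.4 mGy/h of 0.55 with quartiles of 0.04 and 2.40, against a median of -0.01 over all records tested. Of these, 654 (78.9%) had a shift above 0, compared with 47.3% of all records, and 314 (37.9%) had all exposed libraries above all controls, compared with 5.98%. Called higher were 5 of the 829, where 12 of all 9369 records were (0.128%). Of the 170 strongly higher records, 167 were in this list, which is 98.2% of the 170 and 20.1% of the 829. Of all 9369 records tested, 829 were in the list. The other 3 were XM_032921848.1, XM_032927168.1 (LOC116920974) and XM_032934875.1 (LOC116927833), whose day differences of 0.49, 1.16 and 1.05 were not called. With the 170 taken out, the remaining 662 had a median shift of 0.28, and 73.6% had a shift above 0. The 447 records at least 2-fold lower on day 8 shifted less. Their median was -0.14, and 338 of the 447 had a shift below 0, compared with 4939 of all 9369 records. All exposed libraries lay below all controls for 21 (4.70%), where 2.98% of all records did, and none was called. The 1870 records without a called day difference had a median shift of -0.01.

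**Figure D4:**
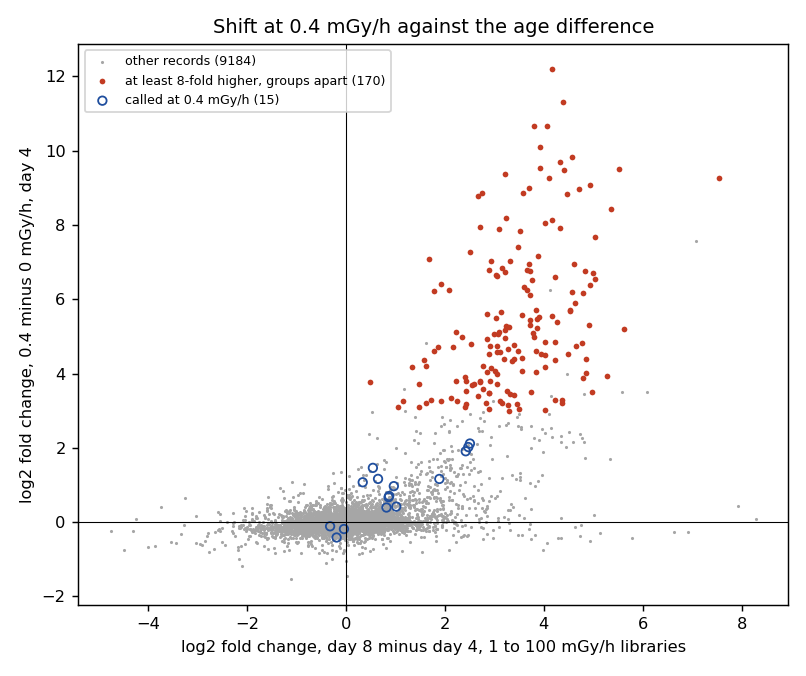
Shift of each of 9369 records at 0.4 mGy/h on day 4 (y axis, log2 fold change against the controls) against its day 8 minus day 4 difference in the 40 libraries at 1 to 100 mGy/h (x axis, log2 fold change); the 2 axes share no library. The 170 records at least 8-fold higher (red) all lie right of 0, most records lie near 0 on the y axis, and few lie far below it at any day difference.

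To place whole libraries on this scale, each was projected on the day difference of the 1 to 100 mGy/h libraries, with 0 set at the mean of their 20 day 4 libraries and 1 at the mean of their 20 day 8 libraries. The day 4 controls scored -0.28, -0.23, -0.25 and -0.13 and the 0.4 mGy/h libraries 0.25, 0.19, 0.41 and 0.34. All exposed libraries scored above all controls. The means were -0.222 ± 0.0633 and 0.296 ± 0.0946 (SD, n = 4), a difference of 0.519 of the distance between days, for which the exact 2-sided permutation test gave p = 0.0286, its smallest possible value with 4 libraries a side. Without the 170 records the means were -0.0993 ± 0.0687 and 0.0955 ± 0.0589 (SD, n = 4), a difference of 0.195 with the same exact permutation p and again no overlap. The groups then nearly met, with control replicate 4 at 0.0029 and exposed replicate 2 at 0.0244. With same-numbered libraries as pairs, the exact sign-flip test of the difference of 0.519 gave p = 0.125, its smallest possible value. The other 20 day 4 libraries scored from -0.30 to 0.32, 4 of them at or above the lowest 0.4 mGy/h library and 7 at or below the highest control. At 1 mGy/h the scores were -0.30, -0.30, 0.28 and 0.30, so this group had libraries at both ends.

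When each library's score was added to the day 4 model as a covariate, an alternative chosen after seeing the data, edgeR called 1 record at 0.4 mGy/h. The score comes from the expression of the same libraries and separates the 2 groups, so a loss of calls is built into this model and nothing is read from it. The record called was XM_032925613.1, higher by 1.95 on the log2 scale (SE 0.26; edgeR, adjusted p = 0.00173).

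**Figure D5:**
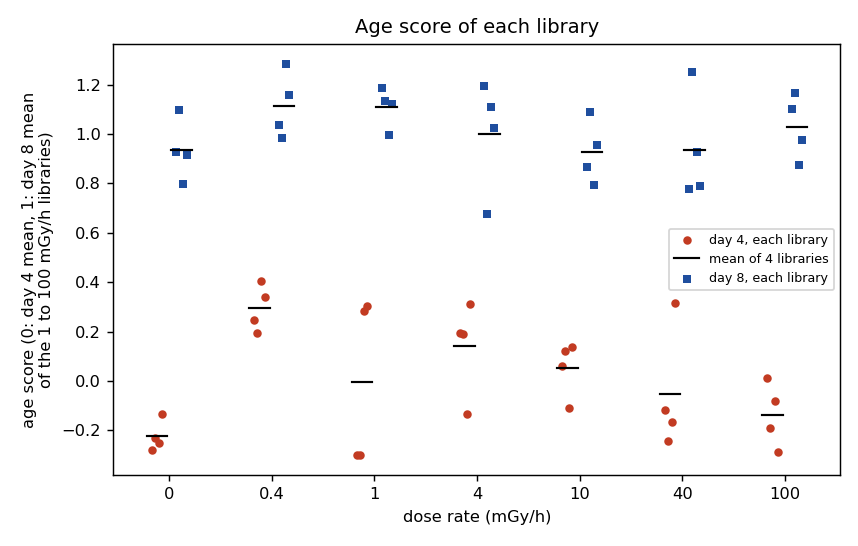
Score of each of the 56 libraries on the day difference (y axis, 0 at the mean of the 20 day 4 and 1 at the mean of the 20 day 8 libraries at 1 to 100 mGy/h) by dose rate (x axis); red circles are day 4, blue squares day 8 and bars the mean of 4 libraries. The 0.4 mGy/h day 4 libraries (0.19 to 0.41) lie above the controls (-0.28 to -0.13), and the other 20 day 4 libraries run from -0.30 to 0.32.

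On day 8 the same dose rate was compared with the day 8 controls, in libraries that are not part of the day 4 comparison. By edgeR, 2 of 9367 records (0.0214%) were called, both higher and neither called on day 4, and 451 (4.81%) had an unadjusted p under 0.05. Named after their values were seen, they were XM_032927704.1 (LOC116921416), from 14.04 ± 3.48 to 45.1 ± 6.91 CPM, and XM_032942389.1, from 37.9 ± 5.13 to 71.6 ± 9.50 CPM (SD, n = 4). Their day 4 log2 fold changes were 0.31 and 0.04. None of the 15 day 4 calls was called on day 8, and 14 had the same direction. Of the 170 records, 169 were tested on day 8 and 168 were higher at 0.4 mGy/h, with none called and a median log2 fold change of 0.93. Of all 9202 records tested on both days, 4692 were higher and their median was 0.01. Of the 829 records at least 2-fold higher with day, 644 were higher at 0.4 mGy/h on day 8, with a median of 0.40. The 170 rise and fall together between libraries, so their number does not count as separate observations. Without day 8 control replicate 3, which was low in these records, the median of the 170 was 0.61. Their summed level was 32801, 44887, 10703 and 20477 CPM in the day 8 controls and 49521, 27762, 66690 and 60939 CPM at 0.4 mGy/h. These groups overlapped. The day 8 scores overlapped too, at 0.935 ± 0.124 in controls and 1.12 ± 0.135 at 0.4 mGy/h (SD, n = 4). In the test of the difference between days, edgeR called none of 9561 records, and 575 (6.01%) had an unadjusted p under 0.05. DESeq2 called 39, of which 36 were lower, and 36 of the 39 were among the 170. The 170 are 1.81% of the records tested on day 4. This difference contains the day 4 shift by which the 170 were chosen. The choice thus favours their number among these calls, and nothing is read from it.

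Both groups were also set against the mean of the other day 4 dose rates, in contrasts that use the same 20 libraries. Against 1 to 100 mGy/h, the 0.4 mGy/h libraries differed in 62 records (0.662%), 34 higher (0.363%) and 28 lower (0.299%), and the controls in 47 (0.502%), 14 higher (0.149%) and 33 lower (0.352%). The counts at 0.4 mGy/h ran from 12 without exposed replicate 4 to 224 without replicate 4 at 40 mGy/h, and that of the controls was 9 without control replicate 1 or 4.

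Falls at 0.4 mGy/h were small, and few reached 2-fold. The 5 records at least 2-fold lower, of which none was called, were XM_032937860.1, XM_032939651.1 (LOC116931962), XM_032941181.1 (LOC116933407), XM_032942048.1 (LOC116934561) and XM_032943356.1. XM_032939651.1 had 3.53, 4.60, 5.66 and 2.94 CPM in the controls and 1.64, 2.04, 1.57 and 0.855 CPM in the exposed libraries, a difference of -1.44 on the log2 scale (edgeR, adjusted p = 0.0589). Its groups did not overlap, and its day difference in the 1 to 100 mGy/h libraries was 0.02. Among records with at least 50 counts on average, the largest fall without overlap was that of XM_032928920.1 (LOC116922549), with 30.9, 28.8, 30.9 and 32.9 CPM in the controls and 18.01, 13.3, 20.2 and 16.4 CPM at 0.4 mGy/h. The difference of -0.86 on the log2 scale was not called (SE 0.26; edgeR, adjusted p = 0.0869). Its day difference was 0.27 at 1 to 100 mGy/h, called higher (edgeR, adjusted p = 0.0259), and -0.43 in the controls, not called. XM_032943675.1 (LOC116936521) ran against both day differences, 3.98 at 1 to 100 mGy/h and 3.58 in the controls. It had 145 ± 32.0 CPM in controls and 86.3 ± 8.41 CPM at 0.4 mGy/h (SD, n = 4; edgeR adjusted p = 0.192), and the day 8 controls had 1741 ± 432 CPM. XM_032940015.1 (LOC116932213), at 7.64 ± 0.844 and 4.38 ± 1.59 CPM, and XM_032941800.1, at 14.04 ± 3.15 and 8.51 ± 1.30 CPM (SD, n = 4), had lower levels in day 8 controls, 1.02 ± 0.762 and 2.27 ± 0.333 CPM. XM_032937280.1 (LOC116929953) had 70.1 ± 21.0 and 42.6 ± 5.59 CPM on day 4 and 3.05 ± 1.07 CPM in day 8 controls (SD, n = 4).

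The most abundant records did not pass the test. XM_032923507.1 had 12463, 9400.4, 15406 and 10255 CPM in the controls and 10523, 6200.0, 5751 and 12641 CPM at 0.4 mGy/h. The groups overlapped (log2 fold change -0.43, SE 0.27, edgeR adjusted p = 0.537), although the record reached 129040 ± 19701 CPM in the day 8 controls (SD, n = 4), so this large day difference was not seen in the 0.4 mGy/h libraries on day 4. XM_032929158.1, XM_032935357.1, XM_032925012.1 (LOC116919128) and XM_032934435.1 (LOC116927135) had log2 fold changes of -0.16, -0.18, 0.05 and -0.27, with edgeR adjusted p from 0.0888 to 0.730, and all 4 were called higher in day 8 than in day 4 controls. For XM_032934435.1 all exposed libraries lay below all controls, against its day difference.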

How the data were processed

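The authors deposited raw counts, which are whole numbers without normalization, in a table of 23570 RefSeq transcript records by 28 libraries for each day. Per the labels' protocols, fragmented mRNA was sequenced as paired 100 bp reads on a BGISEQ-500, and HISAT is named in the submitters' processing notes. The counting program, the genome build and strand handling are not given in the sources used here. Columns were matched to samples by the codes in the labels, and samples grouped by dose rate and day. Among the 28 pairs of the 8 libraries none was identical (lowest chi-square per degree of freedom 9.74), so each counted as 1 sample.

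Counts were analysed with edgeR 4.0.16 in R 4.3.3: filterByExpr, TMM scaling, glmQLFit and glmQLFTest, with Benjamini-Hochberg adjustment over all records tested. One model held the 28 libraries of a day, and another all 56 for contrasts between days. Standard errors were derived from the log2 fold change and the F statistic. Levels are CPM on TMM-scaled sizes of the 56 libraries, and the library score used log2 CPM with a prior count of 2. The models were also run on simulated counts with set shifts and a spread fitted to each record, with outcomes not reported here. Records were drawn independently there, so records that are high or low together in a library were not simulated. DESeq2 1.42.0, RLE scaling, no filter, a replicate block, subsets of libraries and leaving out each library were alternatives.

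Members and lists were chosen with earlier results of these data known. Named are all calls, the 5 largest rises and 5 largest falls among uncalled records with at least 50 counts on average and no overlap of groups, and the 5 most abundant records. Symbols and gene order came from a RefSeq table of assembly ASM2063170v1.1, which matched 6362 of the 9369 records tested on day 4 (67.9%). Lists by protein pattern were planned and not made, since no protein sequences were at hand. Sequences are not shown for the same reason.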

Additional observations from a re-analysis of the deposited data

Results flagged for a closer look

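In 5 of 64 groups of 4 libraries examined, over the records and library measures named above, 1 library lay far from the other 3, where chance would give about 1 in 20, or 3.2 groups. All 5 were in the day 4 controls. The measure is the gap between the extreme library and its nearest neighbour as a share of the group's range, held against the 95% critical value of Dixon's test. For XM_032943526.1 the share was 0.846, with control replicate 3 at 1.80 CPM and the others at 1.22 to 1.31 CPM. For XM_032932244.1 it was 0.860, with replicate 3 at 53.5 CPM and the others at 45.7 to 46.8 CPM. For XM_032937280.1 it was 0.839, with replicate 3 at 101 CPM and the others at 57.4 to 64.5 CPM. For XM_032920621.1 it was 1, since the single read of the 4 controls was in replicate 3. For XM_032920626.1 it was 0.843, with replicate 4 at 0.831 CPM and the others at 0 to 0.131 CPM. Control replicate 3 also had the largest total of the 8 libraries, 14243541 counts. Its part in these values was not tested.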

How the results depend on the processing

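The number of records called at 0.4 mGy/h on day 4 was 15, and it was 15 with RLE scaling, 21 with the replicate block, 8 without a filter on low counts, 395 by DESeq2, 278 in the 8 libraries alone, 1 within the smaller class of totals and 1 with the library score as covariate, and it ran from 0 to 41 when single libraries were left out. All 15 calls were among those of DESeq2 and 14 among those with the block. Without a filter 8 of the 15 were called, and in the 8 libraries alone 10 of the 15. In the 8 libraries alone XM_032923366.1, XM_032936186.1, XM_032932244.1, XM_032929022.1 and XM_032942583.1 were not called (edgeR, adjusted p from 0.0530 to 0.118). Against 1 to 100 mGy/h on day 4, the count for 0.4 mGy/h (62) was 138 by DESeq2 and 12 to 224 without single libraries, and that for the controls (47) was 209 by DESeq2 and 9 to 55. For 0.4 mGy/h on day 8 (2) it was 10 by DESeq2, 1 with the block and 0 to 2 without single libraries. The difference between days had 0 calls by edgeR in every setting run, leaving out single libraries included, and 39 by DESeq2. Day differences kept between 4609 and 5167 calls in the controls and between 7617 and 7967 at 1 to 100 mGy/h. The score difference of 0.519 ran from 0.482 to 0.553 without single libraries. As a rank correlation it was 0.292. With same-numbered libraries as pairs it was 0.519 with an exact sign-flip p of 0.125, the smallest that 4 pairs can give. The deviations of same-numbered libraries correlated with 0.29, -0.30, -0.17 and -0.31, and the main test did not take the numbers as pairs. Replicate 4 had the highest day 4 score at 0, 1, 4, 10 and 40 mGy/h (-0.13, 0.30, 0.31, 0.14 and 0.32), but not at 0.4 or 100 mGy/h. The part of replicate number in the scores was not tested. Whether replicate numbers mark a shared batch is not given in the labels. The 30 named records had no change of direction in 450 values under alternatives, with 118 losing and 15 gaining a call. XM_032925613.1 was called in 7 of 8 fits without a library, XM_032923997.1 in 0 of 8. Called in only 1 of 8 were XM_032926049.1, XM_032936186.1, XM_032933540.1, XM_032929022.1, XM_032942482.1, XM_032932583.1 and XM_032942583.1. The rest of the 15 were called in 2 to 7 of 8. The covariate model loses calls by its construction, and the cause of the other moves was not tested. Depth limits records with few control reads, whose folds have wide intervals.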
